A study of Mus musculus with 2 samples.

Results

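Genes of the T cell receptor complex and of its proximal signalling were followed in dorsal skin of Mpzl3 null mouse pups, set against their wild-type littermates. The genes were taken by symbol, from a list drawn up with earlier results of these data known: the CD3 chains Cd3e, Cd3d and Cd3g, the zeta chain Cd247, the coreceptors Cd4 and Cd8a, the kinases Lck and Zap70, and the accessory receptors Cd2 and Cd5. Of these 10 genes, 9 were named by a probe and are described here, out of 18855 genes named on the arrays. No expression value of Lck was analysed here. The 9 genes were carried by 15 of the 31337 probes that name a single gene.

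The groups were Mpzl3 -/- skin and Mpzl3 +/+ skin, each at postnatal day 9 (P9) and at postnatal day 1 (P1). Each age had 1 Agilent array with 2 dyes, with Cy5 for the null channel and Cy3 for the wild-type channel, so dye and genotype cannot be told apart. The sources used here give neither the number of pups behind a channel nor how the null allele was made. Values are log2 ratios, null divided by wild type, with base 2 inferred from the range of the values, and folds rest on that inference. There is no replicate at either age, so no p-value is given, and a ± is the SD between probes of a gene on the same array.

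The αβ T cell receptor recognises peptides held by MHC molecules through a pair of variable chains. It signals through the CD3 and zeta chains that travel with it. Lck, brought in by the coreceptors CD4 and CD8, phosphorylates the tails of these chains, and ZAP-70 binds there and passes the signal on. In mouse skin the epidermis holds γδ T cells that settle there before birth, and the dermis holds further γδ and αβ T cells. In whole skin, more or fewer T cells and more or less RNA per cell cannot be told apart. Intensities were not available here, so levels of these genes or of defining skin markers could not be examined, only ratios.

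A few facts of the arrays bear on every value below. The SD between probes of the same gene, pooled over all genes, was 0.36 log2 on both arrays (1.28-fold), which does not cover animals. At P9 the X-linked transcript Xist was at 3.67 ± 1.05 (4 probes) and the Y-linked Eif2s3y at −3.98 (1 probe), so the channels of that array differed in sex-linked transcripts as well as in genotype. At P1, Xist was at −1.03 ± 0.77 (4 probes, not all of the same sign), and Eif2s3y was blank. The Y-linked Uty was at 0.33 ± 0.57 at P1 (2 probes, not of the same sign). At P9 genotype and the sex-linked difference fall together on the only array, so their parts in the T cell values cannot be told apart. At P1 the part of sex-linked transcripts in these values was not tested. None of the 15 probes was blank at P9, against 5 of 15 (33.3%) at P1, where 9.45% of all gene probes were blank.

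Most T cell genes were near a ratio of 1, and the exceptions were Cd4, Cd3e and Cd5. At P9 the 9 genes had a median of 0.15, against 0.02 over all genes, and 8 of them lay above 0, as did 53.4% of all genes. At P1 the 8 genes with a value had a median of 0.23, against 0.06 over all genes, and 6 lay above 0, as did 55.8% of all genes. A gene was called higher or lower where the mean of its probes was at least 2-fold and its probes had the same sign. At P9, 0 of the 9 genes met this rule in the higher direction, which 2.24% of all genes met, and 0 in the lower direction, which 0.465% met. At P1, only Cd4 met it in the higher direction, which 1.72% of all genes met, and 0 in the lower direction, which 1.17% met. The count of called genes is therefore 1 over both arrays, and it rests on a single probe.

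**Figure D1:**
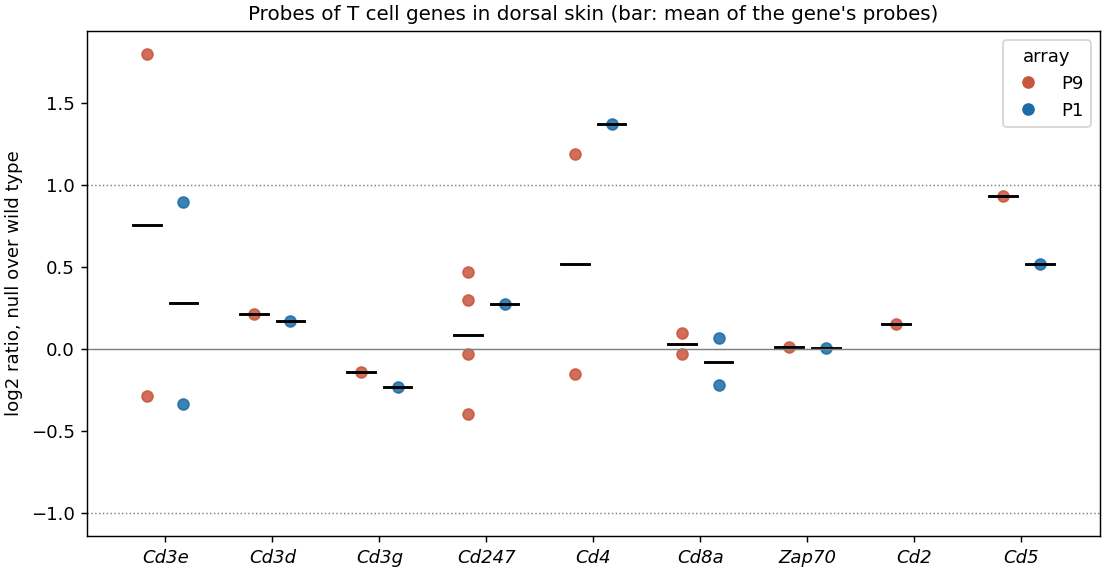
Log2 ratio (null over wild type) for each probe (points) of the 9 T cell genes, with P9 to the left of P1 within each gene; black bars are the means of a gene's probes and dotted lines mark 2-fold. Cd3e and Cd4 each have a probe far above 0 and another below 0, while Cd8a and Zap70 lie near 0.

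The CD3 chains come first, since their genes lie together beside Mpzl3 on mouse chromosome 9. In the RefSeq gene table of GRCm38.p6 the order is Cd3g, Cd3d, Cd3e, Mpzl2 and Mpzl3, with only Mpzl2 between Cd3e and the targeted gene. The RefSeq promoter windows of the 3 CD3 genes, 250 bases before to 50 after the start in GRCm38.p6, are printed with that of Cd5, a gene on chromosome 19 with the highest mean at P9. They are shown because these 4 genes span the range of mean ratios measured at P9. The windows are Cd3e at chr9:45009562-45009861 on the minus strand, Cd3d at chr9:44981536-44981835 on the plus strand, Cd3g at chr9:44980382-44980681 on the minus strand and Cd5 at chr19:10738925-10739224 on the minus strand. Capitals mark each match, on either strand, to GGAAGT, a core bound by ETS family transcription factors.
Cd3e: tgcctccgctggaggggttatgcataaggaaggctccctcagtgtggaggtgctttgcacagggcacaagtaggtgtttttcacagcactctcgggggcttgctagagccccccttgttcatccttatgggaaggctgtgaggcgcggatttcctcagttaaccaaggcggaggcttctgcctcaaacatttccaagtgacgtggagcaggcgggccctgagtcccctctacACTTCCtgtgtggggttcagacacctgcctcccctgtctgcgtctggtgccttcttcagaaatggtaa
Cd3d: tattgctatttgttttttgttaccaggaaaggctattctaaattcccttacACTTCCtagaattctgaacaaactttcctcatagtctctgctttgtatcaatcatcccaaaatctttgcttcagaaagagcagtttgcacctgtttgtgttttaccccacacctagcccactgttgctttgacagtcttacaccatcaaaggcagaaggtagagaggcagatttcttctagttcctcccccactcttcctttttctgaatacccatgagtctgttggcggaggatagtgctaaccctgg
Cd3g: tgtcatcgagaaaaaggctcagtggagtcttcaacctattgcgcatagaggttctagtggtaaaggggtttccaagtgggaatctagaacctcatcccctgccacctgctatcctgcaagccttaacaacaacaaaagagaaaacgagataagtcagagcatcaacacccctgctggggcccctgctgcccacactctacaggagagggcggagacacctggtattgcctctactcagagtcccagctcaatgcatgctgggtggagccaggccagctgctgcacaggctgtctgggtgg
Cd5: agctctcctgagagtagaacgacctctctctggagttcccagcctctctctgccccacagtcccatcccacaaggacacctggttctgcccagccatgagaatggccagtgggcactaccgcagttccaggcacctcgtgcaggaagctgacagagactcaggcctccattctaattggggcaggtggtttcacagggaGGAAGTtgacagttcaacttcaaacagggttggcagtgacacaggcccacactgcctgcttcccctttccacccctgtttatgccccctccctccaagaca

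The GGAAGT match began at position −18 from the start in the Cd3e window, at −199 in that of Cd3d and at −51 in that of Cd5. The Cd3g window held none. RefSeq windows were found for 8 of the 10 genes, 11 windows in all since Lck and Zap70 have several, and 7 of the 11 held GGAAGT. Over all 32851 windows the share was 23.8%. The E-box letters CANNTG were in 11 of 11 windows, against 72.3% of all, and the RUNX letters TGTGGT in 2 of 11, against 16.8%; overlaps between motifs were allowed. The motifs were chosen with the values known, and a match describes these letters and nothing else.

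Cd3e, which encodes the CD3 epsilon chain that pairs with the delta and gamma chains, was measured by 2 probes that disagreed. The first probe, annotated to the RefSeq transcript, was at 1.80 (3.48-fold) at P9, against 0.90 (1.86-fold) at P1. The other probe, annotated to a GenBank record, was at −0.28 at P9, against −0.33 at P1. The gene's mean was therefore 0.76 ± 1.47 at P9 and 0.28 ± 0.87 at P1, and at neither age did its probes have the same sign.

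The gap between the Cd3e probes was 2.08 log2 at P9 and 1.23 log2 at P1. Of the 4983 genes with 2 measured probes at P9, 0.100% had a gap at least as wide, and of the 4861 such genes at P1, 1.85% did. The median gap was 0.27 at P9 and 0.28 at P1. Where each probe lies along the transcript is unstated in the sources used here.

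The other CD3 chains did not follow the high Cd3e probe. Cd3d, the delta chain, was at 0.22 at P9 and 0.18 at P1 (1 probe). Cd3g, the gamma chain, was at −0.14 at P9 and −0.23 at P1 (1 probe). Each differed from 0 by less than the spread between probes.

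Cd247 encodes the zeta chain, which carries most of the phosphorylation motifs of the complex. Its 4 probes were at −0.03, 0.47, −0.40 and 0.30 at P9, and they lay on both sides of 0. At P1 only the last of them had a value, 0.28. The mean was 0.09 ± 0.38 at P9, against 0.28 from that single probe at P1.

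Of the coreceptors, Cd4 was high by a single probe. CD4 binds MHC class II and is found on helper and regulatory T cells. The probe annotated to its RefSeq transcript was at 1.19 (2.28-fold) at P9 and at 1.37 (2.59-fold) at P1. This probe was past 2-fold at both ages, which was so for 0.972% of the 27054 gene probes measured on both arrays. The other Cd4 probe, annotated to a GenBank record, was at −0.15 at P9 and blank at P1. The gene's mean was 0.52 ± 0.95 at P9, against 1.37 at P1.

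The 2 Cd4 probes differed by 1.35 log2 at P9, a gap reached by 1.67% of genes with 2 probes. The difference between the ages in the Cd4 mean, −0.85, thus compares 2 probes with 1. On the probe measured at both ages, the ratio was 1.19 at P9 and 1.37 at P1, which is closer than the spread between probes. Among all genes with a single measured probe at P1, 2.87% were called higher. Counted by probe, 2 of 15 T cell probes were past 2-fold higher at P9 (those of Cd3e and Cd4), as were 2.34% of all gene probes, and 1 of 10 at P1 (that of Cd4), as were 1.71%.

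Cd8a encodes the alpha chain of CD8, which binds MHC class I on cytotoxic T cells. Its probes were at 0.10 and −0.03 at P9, and at 0.07 and −0.22 at P1. The mean was 0.03 ± 0.09 at P9 and −0.08 ± 0.20 at P1, and the probes straddled 0 at each age. All 4 genes with several probes at P9 (Cd3e, Cd247, Cd4 and Cd8a) had probes of both signs, as did 51.7% of all genes with at least 2 probes.

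Zap70, the kinase that docks on phosphorylated zeta and CD3 chains, gave the ratios closest to 1. Its probe was at 0.01 at P9 (1.01-fold) and 0.01 at P1 (1.01-fold).

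The accessory receptors were measured by 1 probe each. CD2 is an adhesion receptor of T and NK cells, and Cd2 was at 0.15 at P9 and blank at P1. CD5 dampens antigen receptor signalling and is also carried by a subset of B cells. Cd5 was at 0.94 (1.91-fold) at P9 and at 0.52 (1.43-fold) at P1, just short of the 2-fold rule at P9. Apart from Cd4 at P1, it was the only gene whose measured probes were all above the pooled probe spread at an age. Each of these rests on 1 measured probe, so this is not agreement between probes.

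Across the ages, all 10 T cell probes measured on both arrays kept their sign, against 73.9% of the 27054 gene probes. The arrays share dye orientation and were not replicated, and over the 16647 genes on both arrays the ratios correlated with Pearson's r = 0.674, across genes that are not independent replicates. In a change from P1 to P9, age cannot be told apart from the sex-linked difference between the P9 channels. The change of P9 minus P1 was above 0 for 9 of the 10 probes. Its median was 0.04, with a range of −0.18 to 0.90. Only the changes of the first Cd3e probe and of the Cd5 probe were larger than the spread between probes. That spread is taken within an array and does not measure the noise of a change between arrays. The share of all gene probes with a change above 0 was not computed, so this count has no background here. The highest change was that of the first Cd3e probe, and the lowest that of the Cd4 probe. Over the 8 genes measured at both ages the median change was 0.07, against −0.01 over all genes. Cd5 changed by 0.42, Cd3e by 0.48, and Cd3d, Cd3g, Cd8a and Zap70 by 0.11 or less. Cd247 changed by −0.19 and Cd4 by −0.85, each from 1 probe at P1 and more at P9.

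**Figure D2:**
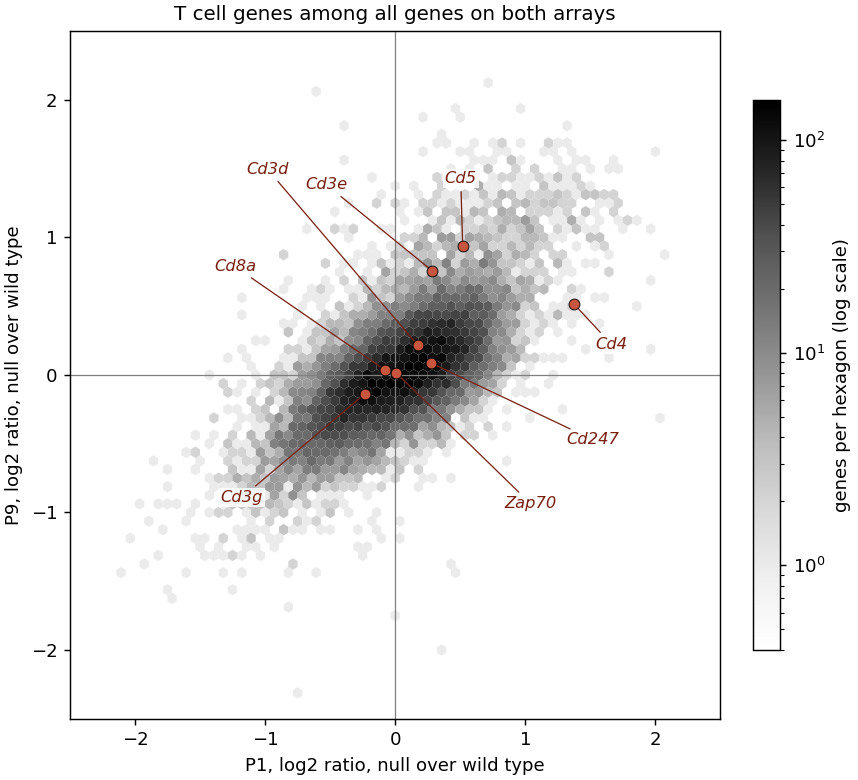
Log2 ratio (null over wild type) per gene at P9 (vertical axis) against P1 (horizontal axis), for the 8 T cell genes with a value on both arrays (orange) over all 16647 genes measured on both (grey hexagons, darker for more genes); 1 gene lies outside the axes. Cd4 lies at the edge of the cloud, at 0.52 at P9 and 1.37 at P1, Cd5 and Cd3e lie on its P9 side, and the other 5 lie near the centre.

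By the Euclidean distance over the 2 arrays, the genes closest to Cd4 were sought among 7083 genes with at least 2 probes on each. Acot11, an acyl-CoA thioesterase, was at 0.48 at P9 and 1.25 at P1, a distance of 0.13. Myh2, a skeletal muscle myosin, was at 0.35 at P9 and 1.55 at P1, a distance of 0.25. Srcin1 was at 0.45 at P9 and 1.12 at P1, a distance of 0.26. These neighbours rest on the averaging of the Cd4 probes at P9, since the probe measured at both ages was at 1.19 there and not at 0.52.

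The genes around Mpzl3 were set beside the CD3 genes. Mpzl3 itself, measured by 1 probe whose place relative to the null allele is unknown here, was at 0.20 at P9 and −0.21 at P1, so it does not check the labels. The 11 measured neighbours that are neither CD3 genes nor Mpzl3 had a median of 0.11 at P9 and 0.09 at P1, and 7 of 11 lay above 0 at each age. At either age 0 of them were past 2-fold.

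Of these neighbours, Jaml, an adhesion receptor that costimulates epidermal γδ T cells, was at 0.36 ± 0.22 at P9 and 0.47 ± 0.06 at P1 (2 probes). Il10ra, a chain of the interleukin-10 receptor on leukocytes, was at 0.17 at P9 and 0.47 at P1. Mpzl2, the gene between Cd3e and Mpzl3, was at 0.02 ± 0.13 at P9 and −0.24 ± 0.02 at P1 (2 probes). The highest neighbour at P9 was Tmprss13, a transmembrane serine protease, at 0.75, against 0.42 at P1. The lowest were Tmem25 at −0.27 at P9 and Ttc36 at −0.52 at P1.

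**Figure D3:**
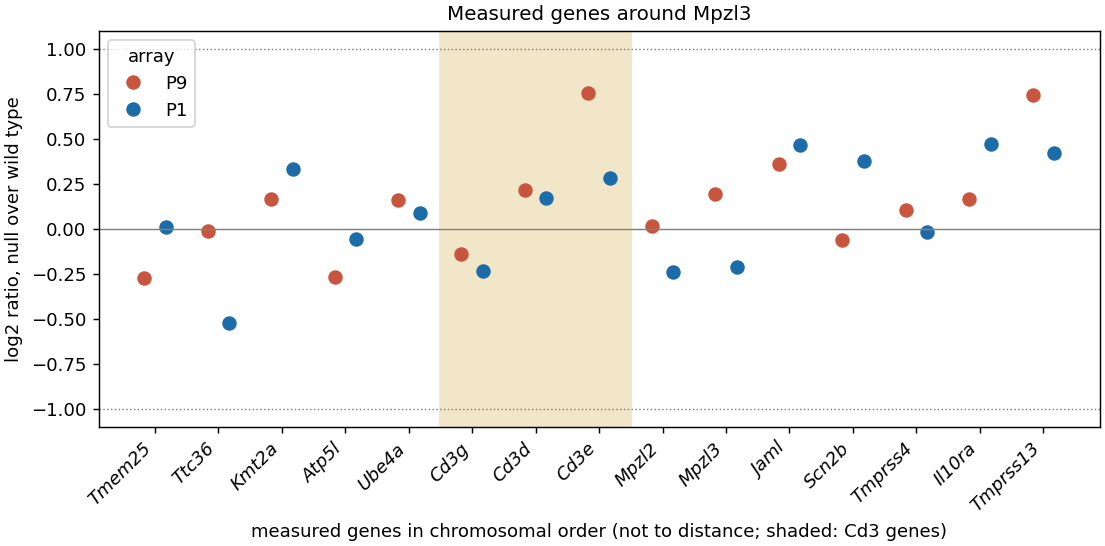
Log2 ratio (null over wild type) per gene for 15 measured genes around Mpzl3 in their order on chromosome 9 (horizontal axis, not to distance), with P9 to the left of P1; the CD3 genes are shaded and dotted lines mark 2-fold. All genes lie within 2-fold, Cd3e and Tmprss13 are the highest at P9, and the CD3 genes do not share a direction.

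The variable chains of the receptor were poorly covered. Of 25 names of receptor chain loci, only Tcra had a probe, at −0.165 at P9 and −0.40 at P1. A wider set, all genes whose symbols mark a receptor chain locus or segment, was added after the annotation was seen and held 12 genes. At P9 these had a median of 0.003 and 6 of 12 lay above 0, and at P1 a median of 0.22 with 5 of 9 above 0. Past 2-fold were 2 segments, each with 1 probe. Trav14d-3-dv8, a variable segment of the alpha or delta chain, was at 1.37 at P9 and 1.35 at P1. Trgv1, a gamma chain segment, was at 1.02 at P9, against 0.47 at P1. Of all genes, 2.24% were called higher at P9 and 1.72% at P1, and 0.465% and 1.17% lower. Among genes with a single measured probe at P1, 2.87% were called higher. These shares also stand beside the list counts below. Trgv2, the only one with several probes, was at 0.53 ± 0.26 at P9 and 0.43 ± 0.48 at P1 (4 probes). Segments resemble each other, so which segment a probe reports is uncertain.

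The proximal signalling genes, adaptors and kinases that act with Lck and ZAP-70, were balanced around 0. At P9, 12 of 24 lay above 0 with a median of 0.02 and 1 was past 2-fold. At P1, 10 of 23 lay above 0 with a median of −0.02 and 0 were past 2-fold. Was, the actin regulator mutated in Wiskott-Aldrich syndrome, was the highest at each age, at 1.08 ± 0.19 at P9 and 0.57 ± 0.13 at P1, with its 2 probes alike. Lat, the adaptor that ZAP-70 phosphorylates, named here after its values were seen, was at 0.92 at P9 and 0.425 at P1 (1 probe). At the other end were Pag1, an adaptor that recruits the Lck inhibitor Csk, at −0.40 ± 0.45 at P9 (4 probes), and Nck1, a linker to the actin cytoskeleton, at −0.78 ± 0.32 at P1 (2 probes).

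Genes further downstream gave 11 of 18 above 0 at P9 and 7 of 18 at P1, with medians of 0.03 at P9 and −0.08 at P1 and 0 past 2-fold at either age. Their values ranged from −0.73 to 0.54 at P9 and from −0.885 to 0.71 at P1. The highest were Nfkbia, the NF-κB inhibitor, at 0.54 at P9, and Dgkz, a diacylglycerol kinase that limits the signal, at 0.71 at P1.

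Costimulatory and checkpoint receptors lay above 0 in 12 of 19 at P9 and 12 of 18 at P1, with medians of 0.055 at P9 and 0.10 at P1, and 0 were past 2-fold. The highest were Cd226, an activating receptor, at 0.98 ± 0.65 at P9 (2 probes), and Slamf6 at 0.75 ± 1.03 at P1 (2 probes). Btla, an inhibitory receptor, was the lowest at each age, at −0.41 at P9 and −0.81 at P1.

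Other T cell surface genes lay above 0 in 9 of 14 at P9 and 9 of 13 at P1, with medians of 0.12 at P9 and 0.10 at P1. Il2rb, the shared beta chain of the interleukin-2 and interleukin-15 receptors, was past 2-fold at both ages, at 1.16 at P9 and 1.10 at P1 (1 probe). The lowest were Ccr7, a lymph node homing receptor, at −0.17 at P9, and Cd69, an early activation marker, at −0.10 at P1.

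Among T cell transcription factors, 7 of 12 lay above 0 at P9 and 8 of 13 at P1, with medians of 0.16 at P9 and 0.21 at P1. Tbx21, which encodes T-bet of type 1 responses and is also expressed by NK cells, was past 2-fold at both ages, at 1.025 at P9 and 1.51 at P1 (1 probe). The lowest were Tox at −0.27 ± 0.31 at P9 and Ikzf1 at −0.37 ± 0.17 at P1 (2 probes each).

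Genes of epidermal γδ T cells and of cytotoxic function had 10 of 13 above 0 at P9, with a median of 0.17, and 8 of 14 above 0 at P1, with a median of 0.0065. Skint1, a keratinocyte gene needed for the epidermal γδ T cells to mature in the mouse thymus, was at 0.57 at P9, against −1.18 at P1 (1 probe), where it was the single gene of the list past 2-fold. Nkg7, a granule protein of cytotoxic cells, was the highest at P9, at 0.99 ± 0.78 (2 probes), and Fasl, a death ligand, the highest at P1, at 0.84. Sox13, a factor of γδ T cells, was the lowest at P9, at −0.74.

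**Figure D4:**
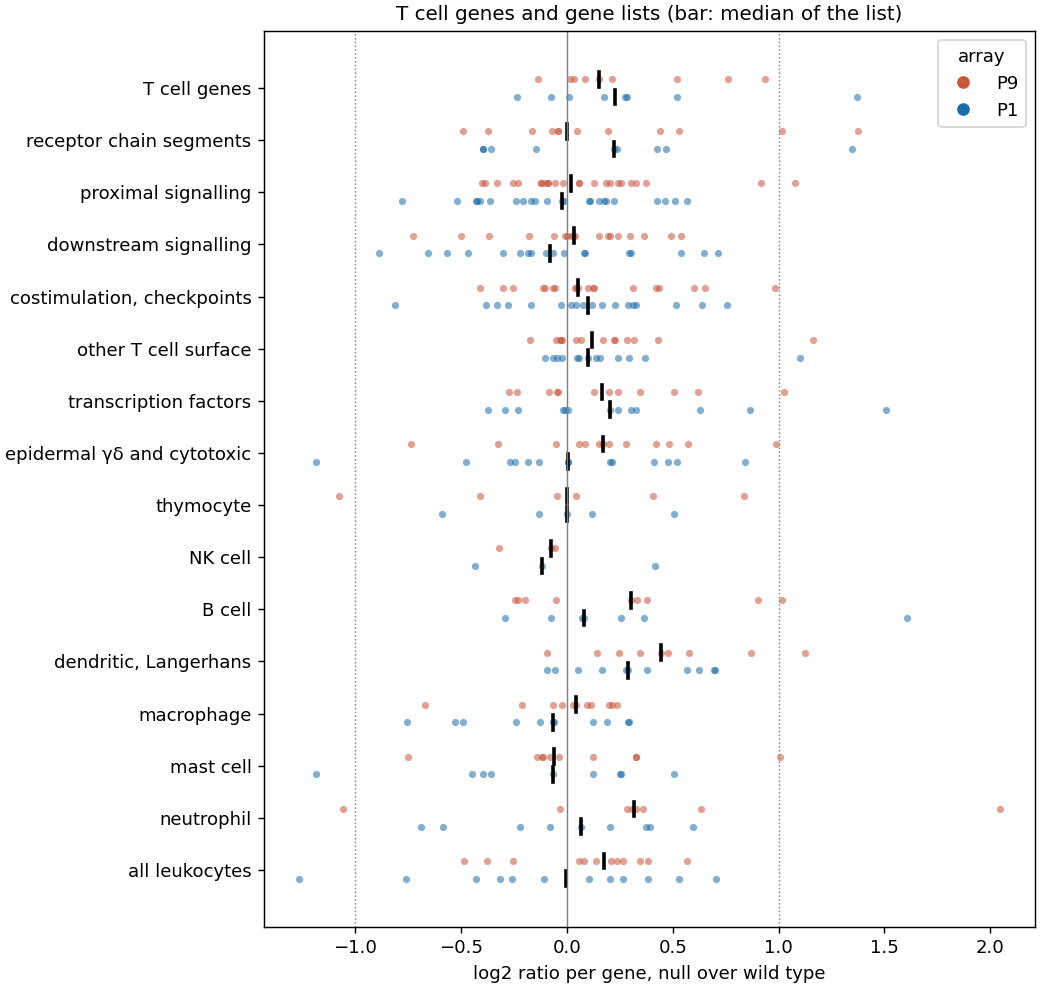
Log2 ratio (null over wild type) for each gene (points) of the T cell genes and of 15 further lists, with P9 above P1 in each list; black bars are list medians and dotted lines mark 2-fold. The list of receptor chain names, with 1 measured gene, is replaced by the added segments. The plotted medians lie between −0.12 and 0.45, and only dendritic and Langerhans cell markers have medians above those of the T cell genes at both ages. At P9 alone, other medians are also above the 0.15 of the T cell genes. These are neutrophil (0.32), B cell (0.30), pan-leukocyte (0.17), epidermal γδ and cytotoxic (0.17) and transcription factors (0.16).

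Markers of other leukocytes went both ways, and their part in the T cell values was not tested. The pan-leukocyte genes lay above 0 in 9 of 12 at P9 and 6 of 12 at P1, with medians of 0.17 at P9 and −0.0015 at P1. Ptprc, which encodes CD45 on all leukocytes, was at −0.25 ± 0.45 at P9 (3 probes) and −0.43 ± 0.49 at P1 (4 probes). Evi2a was the single gene of this list past 2-fold at either age, at −0.49 at P9 and −1.26 at P1.

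Some mouse dendritic cells express Cd4 or Cd8a, as T cells do. Dendritic and Langerhans cell markers lay above 0 in 8 of 9 at P9 and 9 of 11 at P1. Their medians were 0.445 at P9 and 0.29 at P1. Itgax, which encodes CD11c, was past 2-fold at P9 at 1.12 ± 0.67, against 0.70 ± 0.62 at P1 (2 probes). Cd207, the defining marker of Langerhans cells, was at 0.35 at P9 and 0.16 at P1 (1 probe).

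B cell markers lay above 0 in 5 of 9 at P9 and 5 of 7 at P1. Blk, a B cell kinase also found in some γδ T cells, was at 1.01 at P9 (1.015 before rounding) and blank at P1. Cr2, a complement receptor, was at 0.90 ± 1.23 at P9 (2 probes) and at 1.61 at P1 (1 probe). Of the NK cell markers, 0 of 3 lay above 0 at P9 and 1 of 3 at P1. Macrophage markers lay above 0 in 7 of 11 at P9 and 4 of 11 at P1, with medians of 0.04 at P9 and −0.07 at P1 and 0 past 2-fold.

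Mast cell and neutrophil markers held scattered genes past 2-fold. Among mast cell markers, 4 of 10 lay above 0 at P9 and 4 of 9 at P1. Past 2-fold were Ms4a2 at 1.005 at P9 and the receptor Mrgprb2 at −1.18 at P1 (1 probe each). Among neutrophil markers, 6 of 8 lay above 0 at P9 and 5 of 9 at P1. Here S100a9 at 2.04 and Camp at −1.06 were past 2-fold at P9 (1 probe each). At P1 S100a9 was at −0.585 and Camp at 0.065. Thymocyte genes, used by developing T cells in the thymus, had medians of −0.00067 at P9 and 0.003 at P1. Cd1d1, which presents lipids to T cells and is found on many cell types, was the single thymocyte list gene past 2-fold. It was at −1.08 at P9 (1 probe).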

How the data were processed

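Dorsal skin RNA of Mpzl3 null pups and wild-type littermates was compared on Agilent arrays with 2 dyes, 1 array per age, per the labels. The values are log2 ratios of Cy5 over Cy3 that the authors deposited in a table of 39212 rows. The sources used here do not state the background correction, the dye normalization or the filter behind blank cells. Array medians over gene probes were 0.01 at P9 and 0.018 at P1, so the columns appear centred. The dyes in the labels gave the direction. The number of arrays limits the precision.

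Probes were named from the platform annotation and updated through Entrez identifiers to RefSeq symbols of GRCm38.p6; 40 probes naming several genes were left out. Probes of a gene were averaged, and the gene was called where at least 2-fold with all its probes of the same sign. There were 0 columns of unmapped samples. The members and the 15 lists were chosen with earlier results of these data known. The text names every member, list genes past 2-fold, the highest and lowest of a list, 5 measured genes on each side of the Mpzl3 run and the 3 genes nearest to a called member; it gives a selection of these, and one list extreme is not reported here. No test was possible with 1 array per age. The calling code was tested on simulated data with known shifts, which does not check the real calls. Python 3.11.15, numpy 2.4.6, pandas 2.3.3 and matplotlib 3.10.9 were used.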

Additional observations from a re-analysis of the deposited data

Results flagged for a closer look

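The following lay on opposite sides of 0 on the 2 arrays, and with 1 array per age the differences were not tested. Values are P9 minus P1 on the log2 scale. Of the T cell genes this was so for Cd8a alone, by 0.11, with 0.03 at P9 and −0.08 at P1. Of the genes around Mpzl3, it was so for Mpzl3 (0.405), Mpzl2 (0.25), Tmprss4 (0.12), Tmem25 (−0.28) and Scn2b (−0.44). Of list genes past 2-fold, Skint1 differed by 1.75 (1.755 before rounding), S100a9 by 2.63 and Camp by −1.12. Medians differed by 0.044 for proximal signalling, 0.12 for downstream signalling, 0.11 for macrophage markers, 0.175 for pan-leukocyte genes and −0.0037 for thymocyte genes. Xist differed by 4.70.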

How the results depend on the processing

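Alternatives changed the fold, the rule on probe signs, the summary over probes, the centring and scaling of the arrays, the probes and members used and the symbols. The number of T cell genes past the fold at P9 was 0 as reported. It was 1 at a fold of 1.5, 1 with both arrays centred and scaled to the same spread, and 1 over probes with a value on both arrays. With the first 2 of these the gene was Cd5, at 0.94 as deposited and 1.10 after scaling, and with the third it was Cd4, whose ratio at P9 was then 1.19. The number at P1 was 1, and 0 over members with at least 2 probes. That setting drops Cd4, with 1 measured probe at P1, and leaves 2 genes, both with probes of both signs. Its 0 was therefore fixed in advance. The median ranged from 0.14 to 0.30 at P9 (0.15 as reported), from 0.10 to 0.23 at P1 (0.23 as reported) and from 0.07 to 0.29 for P9 minus P1 (0.07 as reported). The values farthest from those reported, 0.30, 0.10 and 0.29, came from members with at least 2 probes, which are fewer genes. Of the single genes, Cd4 at P9 moved by more than the spread between probes; for most others the alternatives could hardly move a value, since the median of 1 or 2 probes is their mean and centring shifts an array by 0.01 or 0.018. Zap70 at P1 changed sign when centred, to −0.008. No paired analysis was possible because each age has 1 array, and no array could be left out. No intensities were used, so the signal over background behind each ratio is unknown.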

Other observations

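Probes that name several receptor chain segments entered none of the values above. The 4 probes naming Trbv13-2 and Trbv1 ranged from 0.30 to 1.25 at P9 and from −0.20 to 0.35 at P1. Of the 3 probes naming Trav3n-3 and Trav3-3, 2 had a value at each age, from 1.02 to 1.45 at P9 and from 0.47 to 1.44 at P1.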
